A study of Mus musculus with 4 samples.

Results

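The genes described are 10 that cardiomyocytes use to move calcium at each beat, Cacna1c, Ryr2, Jph2, Trdn, Asph, Casq2, Hrc, Atp2a2, Pln and Slc8a1, found by symbol among the 32285 genes of the feature lists. They were followed in 4 mouse heart sections, 1 each from a mouse killed 1, 4, 7 or 14 days after the left anterior descending (LAD) coronary artery was tied off for good, which causes a myocardial infarction (MI). All 4 mice were 12-week-old ICR females (Hsd:ICR, also called CD1), no uninjured heart was analysed here, and each fresh-frozen section was 10 µm thick. RNA was captured on Visium slides, on which each barcoded spot covers a small area of tissue that can hold several cells of different types, and molecules were counted by unique molecular identifiers (UMIs). With 1 mouse per day, day and mouse cannot be told apart, and intervals given for single sections cover counting error only.

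Each heartbeat starts when the membrane depolarises and the L-type calcium channel lets a little calcium in, which opens ryanodine receptors on the sarcoplasmic reticulum and releases far more. The muscle relaxes as the reticulum's calcium pump, which phospholamban holds back, returns calcium to the store, and as the sodium-calcium exchanger removes the rest from the cell. Lower pump activity and a larger role for the exchanger are textbook features of failing heart muscle.

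To place the genes within each section, the 7503 spots kept of 9102 were ranked by their summed share of Ankrd1, Flnc, Xirp2 and Nppb UMIs and cut into 4 stress classes of equal size, from class 1 with the lowest share to class 4 with the highest. These 4 genes mark stretched or injured cardiomyocytes and chose the classes, so their own levels are no finding. They stood at 426, 422, 712 and 323 CPM (UMIs per 1000000 UMIs of the same spots) in class 1 on days 1, 4, 7 and 14, and at 13184, 5367, 6280 and 2574 in class 4, which makes class 4 of day 14 the mildest of the top classes. Levels are given in CPM, and per 1000 UMIs of the cardiomyocyte genes Myh6 and Myl2, the alpha myosin heavy chain and the ventricular regulatory light chain. The 7 cardiomyocyte markers, all detected, summed to 64112, 39854, 30833 and 55912 CPM in class 1 on days 1, 4, 7 and 14. In class 4 they summed to 36450, 33064, 52658 and 59122, lower on days 1 and 4 and higher on days 7 and 14. Not all markers followed the sum. Actc1 was higher in class 4 on day 1 (7319 to 10780), while Myh6 went from 11468 to 2957 there. On day 4 Actc1 (4996 to 8360), Tnnt2 (3559 to 4259) and Ttn (979 to 1076) were higher. The other markers were lower on those days, and on day 14 Myh6, Tnnt2 and Tnni3 were lower. Class 1 was not always healthy muscle: 5 fibroblast markers summed to 872 CPM there on day 1 but to 9275 on day 4, 17281 on day 7 and 3056 on day 14, against 1484, 11600, 7946 and 1850 in class 4. On day 7, class 1 also held 12095 CPM of 10 fast skeletal muscle genes, of which class 4 held 153. Endothelial markers were higher in class 4 in all 4 sections (282, 285, 365 and 231 CPM in class 1, and 380, 328, 449 and 288 in class 4). On day 1 neutrophil markers went from 18.1 to 289 and macrophage markers from 277 to 829. On days 4, 7 and 14 both sums were lower in class 4. The macrophage markers were split on day 4. Lyz2 (2403 to 1593) and Cd68 (156 to 71.4) were lower, and C1qa (72.9 to 122), C1qb (216 to 275) and Csf1r (75.6 to 92.7) higher. Neutrophil markers went from 35.4, 56.2 and 103 to 14.5, 11.7 and 18.0, and macrophage markers from 2922, 3068 and 906 to 2153, 1216 and 440. The part of these cells in the values below was not tested.

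Promoter sequences are shown for the exchanger Slc8a1 and the calcium-binding protein gene Hrc, which lay at opposite ends of the members' response, and for the phospholamban gene Pln, which carried most of the motif matches. They are the 250 bases before the RefSeq start site (GRCm38.p6), written in the direction of the gene, with matches to TATAAA or AGATAA in capitals.
Slc8a1, chr17:81738388-81738637, minus strand: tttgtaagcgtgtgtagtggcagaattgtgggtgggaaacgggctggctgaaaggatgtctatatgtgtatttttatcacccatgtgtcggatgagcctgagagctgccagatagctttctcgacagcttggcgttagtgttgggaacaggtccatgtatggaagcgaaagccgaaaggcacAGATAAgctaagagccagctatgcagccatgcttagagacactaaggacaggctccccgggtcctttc
Hrc, chr7:45335019-45335268, plus strand: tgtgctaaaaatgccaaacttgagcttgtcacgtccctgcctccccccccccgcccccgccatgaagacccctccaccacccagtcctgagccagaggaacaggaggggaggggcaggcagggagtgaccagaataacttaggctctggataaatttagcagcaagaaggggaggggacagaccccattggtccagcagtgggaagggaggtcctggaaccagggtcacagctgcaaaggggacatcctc
Pln, chr10:53337436-53337685, plus strand: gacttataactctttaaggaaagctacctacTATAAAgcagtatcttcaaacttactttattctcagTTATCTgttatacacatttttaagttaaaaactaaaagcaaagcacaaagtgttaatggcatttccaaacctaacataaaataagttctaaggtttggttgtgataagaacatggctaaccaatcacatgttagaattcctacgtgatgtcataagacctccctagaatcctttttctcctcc
Slc8a1 held 1 AGATAA, the letters GATA factors can bind, 68 bases before the start, and Pln held 1 on the reverse strand (printed as TTATCT) 183 bases before it. Pln also held a TATAAA, 219 bases before the start. Hrc held neither. Of the 32851 promoters in the reference list, 9.99% held AGATAA and 12.4% TATAAA, on either strand and without excluding overlaps with other motifs. The E-box letters CANNTG were in all 7 members for which a promoter was listed, as in 66.2% of all promoters, whereas CATTCC (12.6% of all) and TGANTCA (6.75%), the letters of MCAT and AP-1 sites, were in none of the 7.

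Across whole sections, the 10 genes together made up 11881, 10434, 11099 and 13425 CPM on days 1, 4, 7 and 14. In spots, fewer cardiomyocytes and less RNA per cardiomyocyte cannot be told apart, and per 1000 Myh6+Myl2 UMIs the same sums were 621, 623, 566 and 612. The order of the days changed with the scale: day 4 was lowest in CPM, and day 7 per Myh6+Myl2 UMI. Atp2a2 and Pln made up most of these sums (6357 and 3499 CPM on day 1), and single genes differed. Per 1000 Myh6+Myl2 UMIs, day 7 was highest for Jph2 (2.66) and Asph (8.24).

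The L-type channel subunit gene Cacna1c stood at 95.1, 97.3, 100.1 and 92.5 CPM on days 1, 4, 7 and 14, with overlapping 95% counting intervals. The ryanodine receptor gene Ryr2 stood at 318, 306, 307 and 375, and only the interval of day 14 lay apart from the other 3. Jph2, which ties the reticulum to the cell membrane, stood at 45.3, 30.6, 52.2 and 41.5, and day 4 was lowest beyond counting error. Trdn, which encodes triadin, an anchor of the store's calcium buffer at the ryanodine receptor, stood at 179, 193, 205 and 245, with day 14 highest and the neighbouring earlier days overlapping. Asph, whose products include junctin, a relative of triadin, stood at 135, 113, 162 and 131, with day 7 highest, day 4 lowest, and days 1 and 14 overlapping.

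Casq2 encodes calsequestrin, the buffer that holds calcium inside the store. Its 374, 275, 415 and 489 CPM on the 4 days had no overlapping intervals. Hrc, a further calcium-binding protein of the reticulum lumen, stood at 688, 467, 668 and 683, and day 4 alone lay apart. The pump gene Atp2a2 (SERCA2) was at 6357, 5655, 5715 and 7332, days 4 and 7 overlapping and day 14 highest. Its inhibitor gene Pln was at 3499, 3157, 3307 and 3874, in the same order of days and with no overlap. Slc8a1 broke this order, with 191 CPM on day 1, the highest of its values, against 139, 167 and 163 on days 4, 7 and 14, of which days 7 and 14 overlapped. In CPM, day 14 was thus highest for Ryr2, Trdn, Casq2, Atp2a2 and Pln. The day 4 section was lowest for 8 of the 10 genes, for Ryr2 and Atp2a2 within the counting error of day 7. Myh6 (8070) and Myl2 (8686) were lowest on day 4 too, and the same count over all genes was not made. Per 1000 Myh6+Myl2 UMIs, day 4 was highest for Ryr2 (18.3), Atp2a2 (338), Pln (188), Cacna1c (5.81) and Trdn (11.5). On that scale day 4 was lowest for Casq2 (16.4), Hrc (27.9) and Jph2 (1.83). Of these, Atp2a2, Trdn and Jph2 overlapped day 14.

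**Figure D1:**
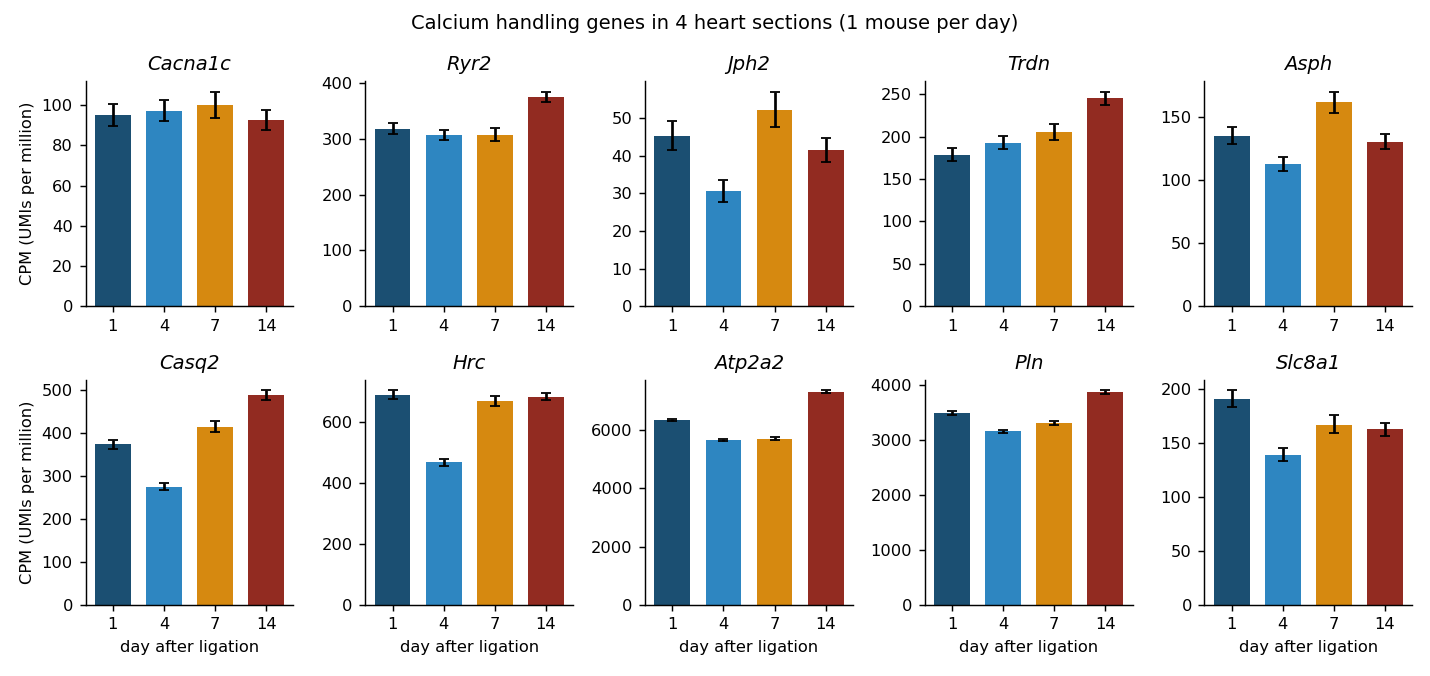
CPM (vertical axis, from 0, scale differing between panels) of each of the 10 genes in the section of each day after LAD ligation (horizontal axis), 1 mouse per bar, with 95% Poisson intervals that cover counting error only. Slc8a1 was highest on day 1 (191) and Atp2a2 on day 14 (7332).

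Relative to Myh6+Myl2, the exchanger gene Slc8a1 showed the widest change of the members on day 4 and in the fit over all 4 sections. On day 1 Jph2 changed more (1.69 to 4.63), and other members did on days 7 and 14. In class 1 it stood at 7.38, 6.08, 9.14 and 7.70 UMIs per 1000 Myh6+Myl2 UMIs on days 1, 4, 7 and 14, and in class 4 at 19.1, 18.0, 10.95 and 7.21. The 2 early sections were far higher in class 4, day 7 slightly so, and day 14 not at all. The log2 ratio of class 4 to class 1 was 1.37 on day 1 (95% interval 1.20 to 1.54), 1.56 on day 4 (1.37 to 1.76), 0.26 on day 7 (0.02 to 0.51) and -0.09 on day 14 (-0.27 to 0.08). The value of day 7 moved with the reference, to 0.58 against class 2, and to 0.62 in the cardiomyocyte-rich spots described further on, where class 1 stood at 6.72 and class 4 at 10.36. With the spots of day 1 cut into 10 classes, Slc8a1 lay at 7.06 in the lowest, 8.86 in the fifth, 12.2 in the seventh and 21.4 in the highest. In CPM it hardly moved on day 1, from 187 in class 1 to 182 in class 4, where Myh6 and Myl2 together went from 25274 to 9560. On day 4 the exchanger was higher in CPM too, 99.0 in class 1 and 184 in class 4, although fibroblast markers were also higher there (9275 and 11600), and their part was not tested.

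The store's buffer gene Casq2 behaved similarly and in all 4 sections. It stood at 17.5, 12.7, 17.3 and 20.8 per 1000 Myh6+Myl2 UMIs in class 1 and at 28.6, 32.0, 24.1 and 23.6 in class 4, again with the widest gap on day 4 (log2 1.34, 1.20 to 1.47) and the narrowest on day 14 (0.18, 0.08 to 0.29). In CPM, Casq2 was lower in class 4 on day 1 (443 against 273) and higher on days 4, 7 and 14.

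Hrc, the other luminal calcium-binding protein, went the opposite way on this scale. It stood at 36.3, 30.2, 43.7 and 32.7 per 1000 Myh6+Myl2 UMIs in class 1 and at 32.4, 26.3, 30.4 and 29.8 in class 4, lower in 4 of 4 sections with log2 ratios from -0.52 on day 7 to -0.13 on day 14. The size of the day 7 value rested on its class 1, as classes 2 and 3 of that day stood at 34.1 and 34.0. In the cardiomyocyte-rich spots described further on, Hrc went from 33.2 to 30.2 on day 7. In CPM the loss was steep on day 1, from 916 to 310, and on day 4, from 491 to 269, whereas day 7 went from 509 to 568. Hrc and Casq2, which share a compartment, therefore moved apart: no section had both on the same side per Myh6+Myl2 UMI.

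Of the channel and release genes, Cacna1c stood at 5.03, 4.95, 4.42 and 3.81 per 1000 Myh6+Myl2 UMIs in class 1 and at 6.27, 8.85, 6.49 and 4.49 in class 4, higher in every section, with an interval that reached just below 0 on day 14. Ryr2, the channel's partner across the cleft, changed less, from 15.6, 17.5, 13.8 and 17.5 to 17.4, 24.6, 15.4 and 16.3. Only on day 4 was its log2 ratio above 0.2 (0.49, 0.36 to 0.62), and in CPM it was 395 and 167 on day 1. The junction genes were split by day. Jph2 went from 1.69, 1.42, 3.23 and 1.65 in class 1 to 4.63, 2.75, 2.80 and 2.05 in class 4, a clear gap on days 1 and 4 and none beyond counting error on days 7 and 14.

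Asph went from 5.38, 5.92, 9.73 and 5.27 to 12.0, 11.2, 8.62 and 6.78, with day 7 the only section not higher. Trdn went from 9.06, 10.8, 14.2 and 11.1 to 12.6, 15.6, 10.4 and 11.7, with day 7 lower (log2 -0.45, -0.67 to -0.24). On day 7, Jph2, Trdn, Asph, Hrc and Slc8a1 were all higher per Myh6+Myl2 UMI in class 1 than in classes 2 and 3, and that class is the one with 12095 CPM of skeletal muscle genes. Skeletal muscle uses several of the junction proteins as well, and how much of the day 7 values came from it was not tested.

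The pump gene Atp2a2 stood at 7828, 5337, 3456 and 7327 CPM in class 1 and at 4074, 3809, 5476 and 6856 in class 4, lower on days 1, 4 and 14 and higher on day 7, where class 1 held the least cardiac muscle. Per 1000 Myh6+Myl2 UMIs it went from 309.7, 328, 296 and 344 to 426, 373, 293 and 321, so the pump gene held up better than the myosin pair on days 1 and 4. Pln went from 181, 178, 165 and 174 to 194, 231, 173 and 177 on the same scale, with overlapping intervals on days 7 and 14. It was higher in 4 of 4 sections but by no more than 0.37 on the log2 scale. Both proteins work as a complex.

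**Figure D2:**
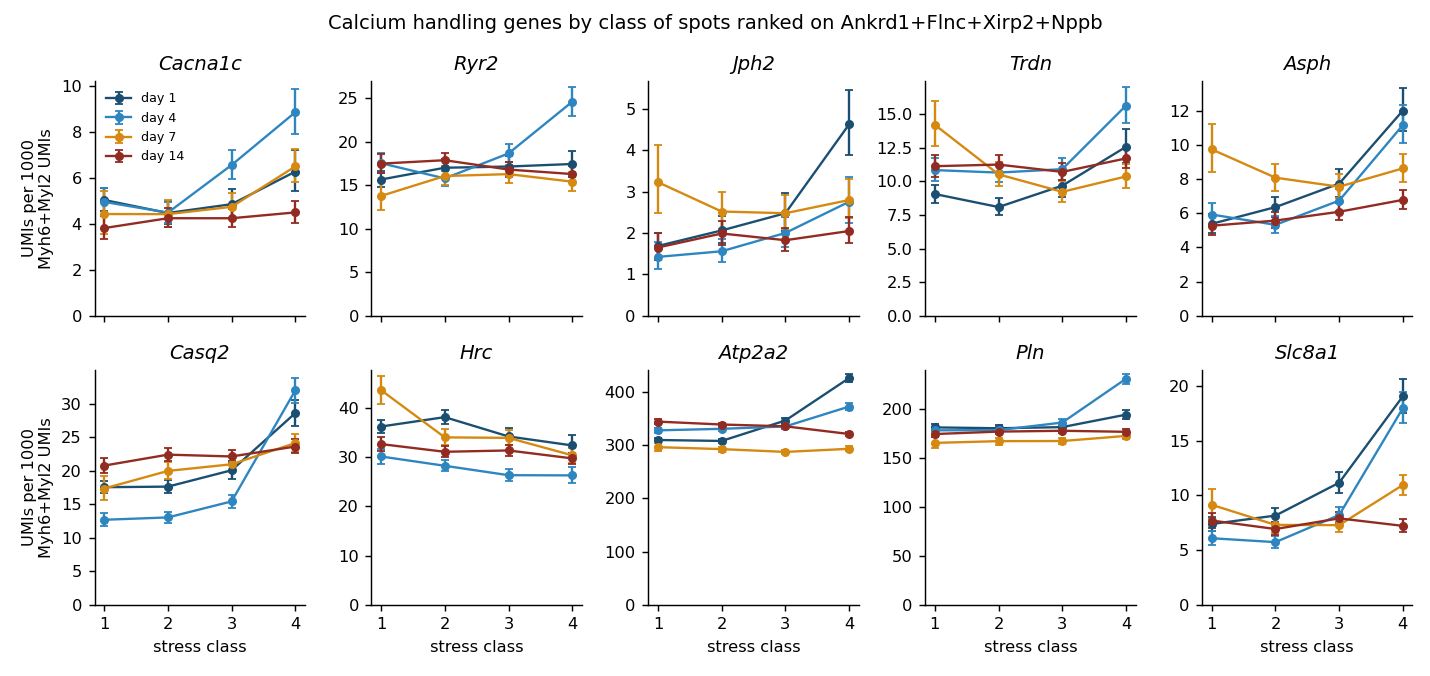
UMIs per 1000 Myh6+Myl2 UMIs (vertical axis, from 0, scale differing between panels) of each gene in the 4 stress classes of each section (horizontal axis, 1 lowest and 4 highest share of Ankrd1+Flnc+Xirp2+Nppb), with 95% counting intervals. Slc8a1, Casq2, Jph2 and Asph climbed on days 1 and 4, Hrc was lower in class 4 than in class 1 in all 4 sections, and the day 14 lines were the flattest for Slc8a1 and Casq2.

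The transcripts of the pump and its inhibitor were then set against each other, since a ratio of UMIs of both genes needs no outside denominator. Such a ratio is of RNA counts and does not measure the proteins. There were 0.585, 0.544, 0.559 and 0.507 Pln UMIs per Atp2a2 UMI in class 1 on days 1, 4, 7 and 14, and 0.456, 0.620, 0.589 and 0.551 in class 4. Day 1 was lower in class 4 (log2 -0.36, -0.41 to -0.31), and the later 3 sections were higher, by 0.19, 0.08 and 0.12. The mean over the 4 sections was 0.006 ± 0.25 (SD, n = 4), and an exact two-sided sign-flip permutation test gave p = 1.

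Casq2 UMIs per Ryr2 UMI, the buffer relative to the release channel, went from 1.12, 0.724, 1.26 and 1.19 in class 1 to 1.64, 1.301, 1.57 and 1.45 in class 4. The ratio was higher in 4 of 4 sections, with a mean log2 ratio of 0.50 ± 0.26 (SD, n = 4), and the exact two-sided permutation p = 0.125 is the smallest that 4 sections allow.

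**Figure D3:**
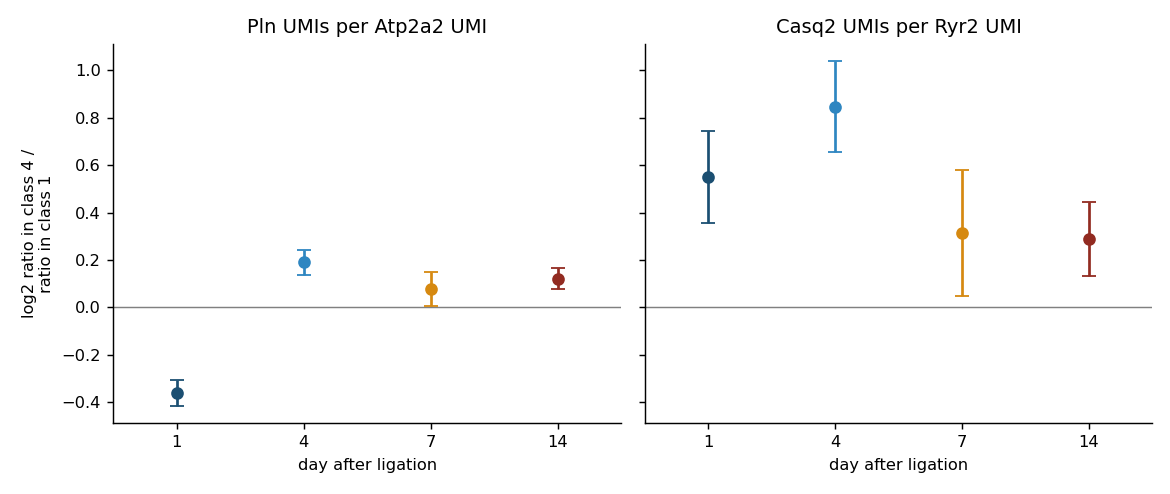
Log2 of the ratio in class 4 over the ratio in class 1 (vertical axis) for Pln UMIs per Atp2a2 UMI (left) and Casq2 UMIs per Ryr2 UMI (right) in the section of each day (horizontal axis), with exact 95% counting intervals. The pump pair was below 0 on day 1 (-0.36) and above it later, and the buffer-to-channel ratio was above 0 on each day.

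The change from class 1 to class 4 was tested with edgeR's quasi-likelihood test across all genes of at least 1000 UMIs, with the section as a block and the 4 sections, each of another day, standing as replicates. Relative to all UMIs, 0 of the 10 genes were called at an adjusted p under 0.05, in either direction. Among the 4765 genes tested, 0.294% were called lower and 1.01% higher, so few calls were made anywhere. Hrc had the largest fitted change, a log2 value of -0.71 (SE 0.29, adjusted p = 0.295). It was the single member with an unadjusted p under 0.05, which 663 of the 4765 genes had. Atp2a2 was at -0.37, Pln at -0.36, Ryr2 at -0.34 and Trdn at -0.33, while Slc8a1 was at 0.28, and the median over the members was -0.18 against -0.014 over all genes. Without the day 1 section this turned, to 0.19 over the members against -0.039 over all genes. Without day 4, 7 or 14 the members' median stayed the lower.

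Relative to Myh6+Myl2 UMIs, again 0 of the 10 were called with edgeR, where 0.0210% of 4763 genes were called lower and 0.0630% higher. The 5 members with an unadjusted p under 0.05 were Slc8a1 (log2 0.81, SE 0.29, adjusted p = 0.416), Casq2 (0.70, SE 0.23, adjusted p = 0.351), Jph2 (0.64), Asph (0.58) and Cacna1c (0.49). Of all 4763 genes, 428 had such an unadjusted p. Atp2a2, Pln, Ryr2 and Trdn lay between 0.14 and 0.18, and Hrc at -0.26. The median gene, though, stood at 0.43 on this scale, above the members' median of 0.34. This too turned without the day 1 section, to 0.024 against 0.27 over the members, but not without day 4, 7 or 14.

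The choice of denominator turned most directions, as the plot of the 4 scalings shows. Per UMI of Actc1, Tnnt2, Tnnc1 and Tpm1, which encode thin filament proteins, 5 members were called lower by edgeR, Hrc (-1.04), Atp2a2 (-0.68), Pln (-0.67), Trdn (-0.66) and Ryr2 (-0.64), where 18.7% of all genes were called lower. Per UMI of Ttn, Mybpc3 and Actn2, which encode thick filament and Z-disc proteins, the same 5 were called lower, by -1.01 to -0.62, against 20.0% of all genes. Slc8a1, at -0.047 and -0.0077, kept pace with both sets of sarcomere genes. The order of the members was alike throughout, with Slc8a1 at the top and Hrc at the bottom on each of the 4 scales. The 4 fits share the same counts and differ only in library size, so a like order was largely fixed in advance.

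**Figure D4:**
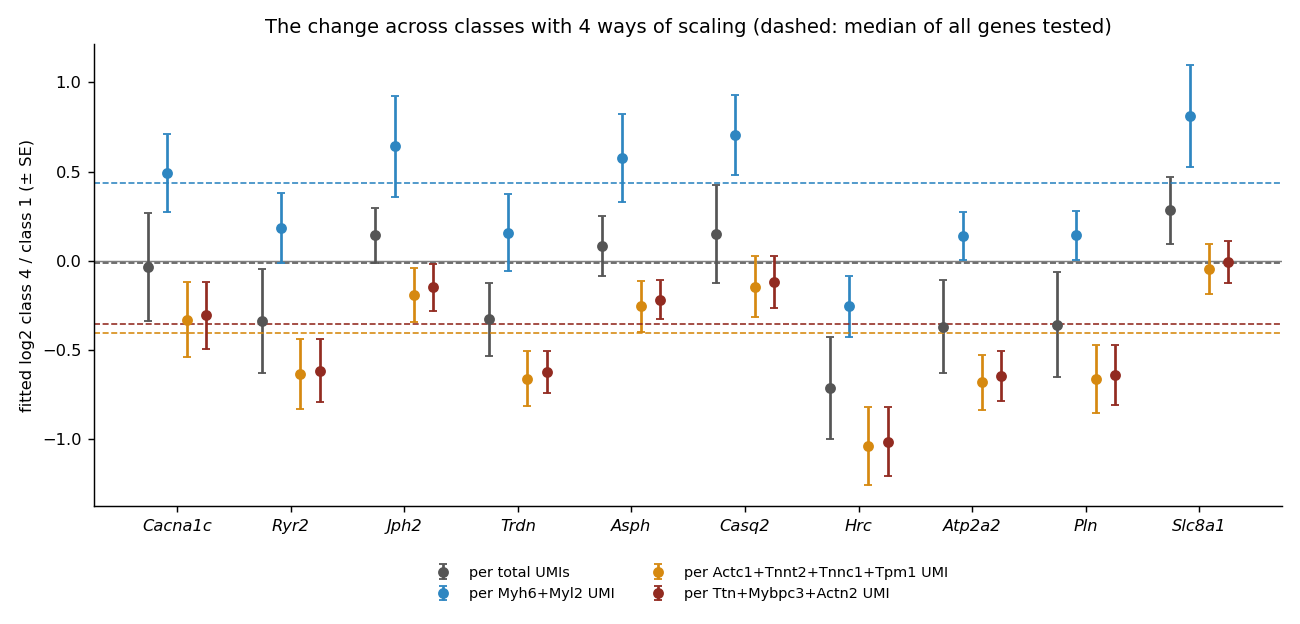
Fitted log2 change from class 1 to class 4 (vertical axis, ± SE from edgeR, 16 libraries) for each gene, scaled by all UMIs or by 1 of 3 sets of sarcomere genes. Dashed lines mark the median of all genes tested on that scale. Slc8a1 lay between -0.047 and 0.81 and Hrc between -1.04 and -0.26.

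Because class 1 of the later sections took in scar, the spots were also ranked anew within cardiomyocyte-rich muscle, defined as spots with at least 0.5 of their section's median Myh6+Myl2 share. This kept 1427, 1157, 1310 and 1816 spots on days 1, 4, 7 and 14, and fibroblast markers in class 1 came to 868, 1085, 1241 and 720 CPM. In class 4 of this muscle they came to 1634, 4941, 5356 and 1641. Macrophage markers went from 284, 351, 428 and 278 to 611, 1567, 1055 and 405, and smooth muscle markers from 65.7, 79.1, 88.3 and 76.2 to 168, 235, 236 and 137. Cardiomyocyte RNA still differed: Myh6 and Myl2 together went from 25452, 22552, 24963 and 23090 CPM to 15403.5, 15730, 20349 and 21504. These differences lie between the same classes as the results on these spots, and their part in the results was not tested.

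In cardiomyocyte-rich muscle, the pump gene Atp2a2 went from 7862, 7358, 7373 and 7884 CPM in class 1 to 5485, 5418, 5866 and 6907 in class 4, lower in each section and with no overlap between the classes. Pln went from 4608, 4008, 4133 and 4013 to 2700, 3128, 3442 and 3782, again without overlap. Hrc went from 933, 669, 828 and 743 to 482, 419, 615 and 644, and each of its class 4 values lay below each class 1 value. The size of all 3 changes fell with the day, from log2 -0.52, -0.77 and -0.95 on day 1 to -0.19, -0.09 and -0.21 on day 14. How far the classes lay apart differed between these sections as well. The 4 ranking genes went from 356, 505, 1301 and 419 CPM in class 1 to 8872, 4462, 6263 and 2636 in class 4, and the part of this was not tested. Per 1000 Myh6+Myl2 UMIs, Atp2a2 went from 309, 326, 295 and 341 in class 1 to 356, 344, 288 and 321 in class 4. Pln went from 181, 178, 166 and 174 to 175, 199, 169 and 176 on that scale. Hrc went from 36.7, 29.7, 33.2 and 32.2 to 31.3, 26.6, 30.2 and 30.0. In CPM, Ryr2 went from 389.3, 389, 372 and 407 to 228, 340, 309 and 348. Trdn went from 223, 242, 228 and 253 to 159, 196, 198 and 248, with day 14 hardly changed.

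These 5 genes were called lower by edgeR, Hrc at -0.75 (SE 0.11, adjusted p = 4.0e-05), Atp2a2 at -0.57 (SE 0.06, adjusted p = 3.2e-06), Pln at -0.57 (SE 0.08, adjusted p = 4.0e-05), Ryr2 at -0.55 (SE 0.10, adjusted p = 0.0003) and Trdn at -0.45 (SE 0.08, adjusted p = 0.00014). They are 5 of 10, where 22.7% of the 3675 genes tested were called lower, and 0 members were called higher, where 22.3% of genes were. With plain library totals in place of TMM factors, which moved the median gene from 0.003 to 0.21, the same 5 were called lower, Atp2a2 at -0.37, against 11.6% of genes, and Slc8a1 was called higher at 0.23 (adjusted p = 0.044), against 43.5%. Hrc was lower than all but 1.63% of the genes tested in the TMM fit.

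With TMM factors, the other 5 genes were not called relative to all UMIs in this muscle. Slc8a1 went from 173, 114, 168 and 170 CPM in class 1 to 196, 169, 211 and 156 in class 4, a fitted log2 change of 0.027 (SE 0.09, adjusted p = 0.83). Casq2 went from 429, 274, 450 and 489 to 307, 342, 488 and 505, lower on day 1 and higher on the other days. Asph (fitted log2 -0.089), Cacna1c (-0.17) and Jph2 (-0.19) also missed the threshold.

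Relative to Myh6+Myl2 UMIs in the same muscle, these 5 were called higher by edgeR: Slc8a1 at 0.65 (SE 0.14, adjusted p = 0.00048), Asph at 0.52, Cacna1c at 0.44, Casq2 at 0.42 and Jph2 at 0.41 (adjusted p = 0.011). Here 82.0% of the 3673 genes tested were called higher, so 5 of 10 was below the background, and 0 members were called lower, where 0.926% of genes were. The median gene was at 0.62, and Slc8a1 alone of the members lay above it. Without the day 1 section, or without day 4, Jph2 lost its call and 4 members were called higher. Of all 3673 genes, 2641 and 2497 were called higher in these fits. The 5 calls relative to all UMIs stood without any single section, where 617 to 827 of 3675 genes were called lower.

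**Figure D5:**
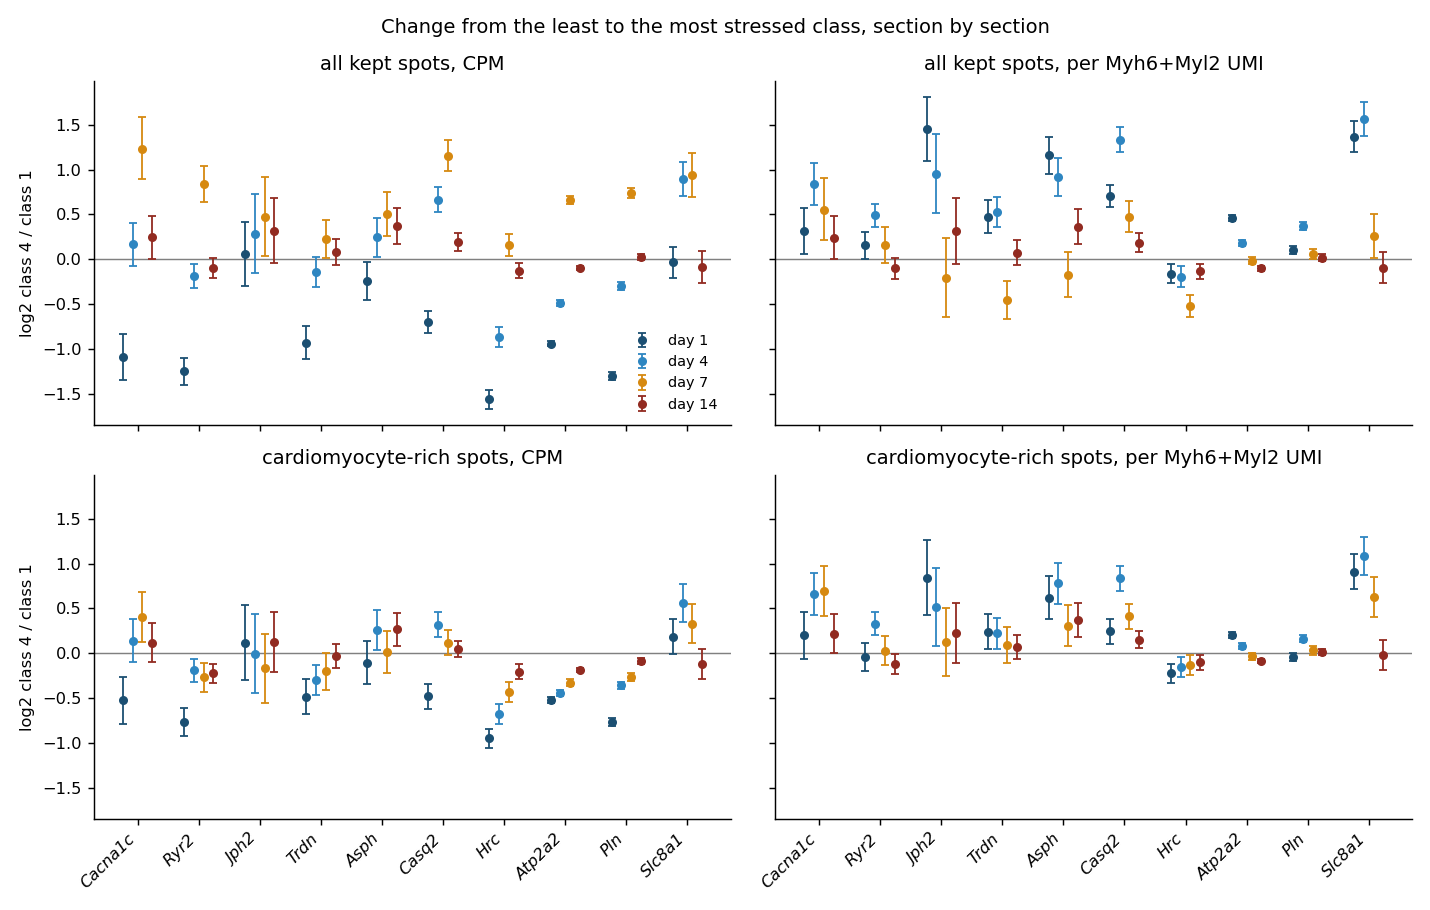
Log2 ratio of class 4 to class 1 (vertical axis) in the section of each day, in CPM (left) and per Myh6+Myl2 UMI (right), in all kept spots (top) and in cardiomyocyte-rich spots ranked anew (bottom), with exact 95% counting intervals. In the top left panel the day 7 points lie above the others, and in the bottom left panel Hrc, Atp2a2, Pln, Ryr2 and Trdn are below 0 in all 4 sections.

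With class 2 of all kept spots as the reference in place of class 1, chosen after seeing the scar markers in class 1, Hrc alone was called lower relative to all UMIs (log2 -1.04, adjusted p = 0.045), where 7.74% of genes were. Per Myh6+Myl2 UMI, Slc8a1 (0.93), Asph (0.61), Casq2 (0.61) and Cacna1c (0.53) were called higher, where 73.5% of genes were. The median gene stood at 1.03 on this scale and at 0.038 relative to all UMIs. All 10 members lay below it on both scales.

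A wider list of 54 genes that act with these 10 held 34 with enough UMIs to be tested. Relative to all UMIs, 2 were called higher, 1 lower and 31 not called, and their median log2 change was 0.003. Of all genes tested, 1.01% were called higher and 0.294% lower. Rcan1, an inhibitor of the calcium-activated phosphatase calcineurin, stood at 50.7, 41.0, 67.8 and 48.4 CPM in class 1 on days 1, 4, 7 and 14 and at 660.4, 166, 293 and 70.2 in class 4, a fitted log2 change of 1.98 (SE 0.43, adjusted p = 0.047). Rrad, a small GTPase that restrains the L-type channel, went from 227, 56.6, 107 and 146 to 736, 163, 275 and 205 (log2 1.15, SE 0.17, adjusted p = 0.012). Both were higher in 4 of 4 sections, and both calls were lost without the day 4 section (adjusted p = 0.404 for Rcan1 and 0.24 for Rrad) or without day 7 (0.199 and 0.151). Over 18 other settings in all, the call of Rcan1 was lost in 6 (adjusted p from 0.00024 to 0.735) and that of Rrad in 5 (1.6e-07 to 0.736), among them 3 classes in place of 4 and a fit of classes 1 and 4 alone. In cardiomyocyte-rich muscle both were called higher by edgeR, Rcan1 at 1.60 (adjusted p = 0.0056) and Rrad at 0.62 (adjusted p = 0.015). There, 22.3% of the 3675 genes tested were called higher.

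The gene called lower was Atp2a1, the pump of fast skeletal muscle, with 2500 UMIs in class 1 of day 7, 64 in class 4 of that day, and at most 1 in either class of any other section. Atp2a1 is itself 1 of the 10 fast skeletal muscle genes summed above, and its edgeR call was lost without the day 7 section (adjusted p = 0.50). Relative to Myh6+Myl2 UMIs, Atp2a1 was again called lower, 0 of the 34 were called higher, and Rcan1 (log2 2.46, adjusted p = 0.226) and Rrad (1.65, adjusted p = 0.185) were not called by edgeR. Of all genes, 0.0210% were called lower and 0.0630% higher on this scale. By role, 0 of 13 release and junction partners were called on either scale, nor were any of 4 membrane extrusion genes, 3 mitochondrial uptake genes, and 4 chaperone and store entry genes.

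Among the members, values per Myh6+Myl2 UMI centred within sections moved together over the 16 class libraries for Pln and Casq2 (Pearson r = 0.96) and for Jph2 and Asph (0.95), while Hrc ran against Cacna1c (-0.64) and Casq2 (-0.59). These libraries share sections and the denominator, so the values are a description. Of 4755 other genes, those whose levels in CPM most resembled the members' mean over the same libraries included Uqcr10, a subunit of respiratory complex III, and Myzap, a protein of the intercalated disc (both r = 0.997), and Map1lc3a and Clpx (both 0.99).

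Positions bear on how far the counts can be assigned. In the GENCODE annotation of GRCm38 the members' genes run from 3685 bases for Hrc (chr7:45335290-45338974) to 609179 for Cacna1c (chr6:118587240-119196418). Pln (chr10:53337667-53345987) lies opposite Cep85l and shares exon bases with it, as Slc8a1 (chr17:81373105-81738377), Atp2a2 (chr5:122453513-122502225) and Asph (chr4:9448069-9669344) do with genes on the other strand. Whether strand was used in counting is not given in the sources used here, so UMIs of these 4 genes may include some of their neighbours.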

How the data were processed

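Sections of 1 mouse per day were profiled on Visium slides. Per the labels and methods, the authors aligned reads to mm10 and counted UMIs per gene and spot with Space Ranger 1.3.0. The deposited values are raw UMI counts, with no normalization. Barcodes come from 1 slide design, so 1332 of 3178 recur in all 4 sections without marking shared cells.

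Spots with over 1% of UMIs in 8 hemoglobin genes were left out, which kept 51309053 UMIs, 9292678 to 15713779 per section. Spots were ranked within sections and UMIs summed per class of 4, giving 16 libraries. These were fitted with edgeR 4.0.16 (R 4.3.3; TMM factors, or Myh6+Myl2 UMIs as library size; section as block; 9 residual degrees of freedom), and p-values were adjusted by Benjamini-Hochberg over all genes tested. DESeq2 1.42.0, other spot filters, other classes and other denominators were alternatives. When the fit was tested on simulated data, it recovered most changed genes per total UMIs, but per Myh6+Myl2 UMI none that differed by the smaller of the folds used. The members, the wider list and the markers were chosen with earlier results of these data known. All members are named, and of the wider list up to 5 called genes per direction that moved the same way in every section, and the 5 genes most like the members' mean, of which 1 is not reported here. Gene positions came from GENCODE vM21, promoters from RefSeq, with entries for 7 of 10 members.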

Additional observations from a re-analysis of the deposited data

How the results depend on the processing

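Each section is 1 mouse and 1 day, so the p-values treat days as replicates, and classes formed from expression are not anatomical zones. Counts of 439 to 652 Jph2 UMIs per section limit that gene most. Classes were compared within sections, with the section as a block. Without this block 0 members were called on either scale, and 0 and 2 genes of all genes were called lower and higher per total UMIs and 0 and 0 per Myh6+Myl2 UMI. The cause of the changes below was not tested.

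Of the 10 members, 0 were called in either direction on either scale under the hemoglobin limits, the removal of shallow, skeletal muscle or atrial spots, ranking without Nppb, 3 classes in place of 4, a minimum of 10 UMIs, DESeq2, a fit of classes 1 and 4 alone, library totals, DESeq2 size factors, Myh6 or Myl2 alone, or without any 1 section. The calls in cardiomyocyte-rich spots were 5 lower per total UMIs and 5 higher per Myh6+Myl2 UMI, and 5 lower and 1 higher with library totals. Leaving out 1 section gave 5 lower and 4 to 5 higher. In those fits 617 to 827 of all 3675 genes were called lower per total UMIs, and 2497 to 3098 of 3673 higher per Myh6+Myl2 UMI. Against class 2 the calls of members were 1 lower and 4 higher, and 5 lower with each of the other sarcomere denominators. The calls of Rcan1 and Rrad per total UMIs were lost with 3 classes, with classes 1 and 4 alone, without the section block and without day 4 or day 7, and that of Rcan1 also at a minimum of 10 UMIs. Per Myh6+Myl2 UMI they were made in 6 and 5 of 20 settings. The added settings were chosen after seeing the data.

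Over all genes per total UMIs, the 14 called lower became 9 (hemoglobin limit 0.5%), 833 (cardiomyocyte-rich), 8 (without skeletal muscle and atrial spots), 1 (3 classes), 41 (10 UMIs), 45 (DESeq2), 0 (classes 1 and 4 alone), 369 (class 2) and 0 to 143 leaving out 1 section, most without day 1. The 48 called higher became 821 (cardiomyocyte-rich), 1 (3 classes), 73 (10 UMIs), 97 (DESeq2), 1 (classes 1 and 4 alone), 92 (library totals), 255 (class 2) and 0 to 134. Per Myh6+Myl2 UMI, the 1 called lower became 34 (cardiomyocyte-rich), 3 (without skeletal muscle and atrial spots), 2 (without Nppb), 0 (3 classes), 6 (10 UMIs), 6 (DESeq2), 3 (classes 1 and 4 alone), 892 (thin filament), 954 (thick filament and Z-disc), 0 (Myh6 alone), 10 (class 2) and 0 to 14 leaving out 1 section. The 3 called higher became 3012, 18, 7, 2, 8, 95, 5, 27, 25, 2, 3503 and 0 to 8 in that order.

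Directions per total UMIs turned for Cacna1c (main -0.04) at a hemoglobin limit of 0.5% (0.0072), with classes 1 and 4 alone (0.038) and with library totals (0.10, and 0.038 in cardiomyocyte-rich spots). Leaving out 1 section gave -0.41 to 0.44 for Cacna1c, -0.66 to 0.070 for Ryr2, -0.68 to 0.079 for Pln, -0.12 to 0.56 for Casq2 and -0.042 to 0.31 for Asph, each lowest without day 7 and highest without day 1. In cardiomyocyte-rich spots Casq2 (-0.19), Jph2 (-0.19) and Asph (-0.089) turned. Without days 1, 4, 7 and 14 in turn these 3 were then at -0.063, -0.28, -0.20 and -0.23, at -0.22, -0.16, -0.096 and -0.26, and at -0.033, -0.12, -0.030 and -0.17, and Slc8a1 was at -0.058 without day 4. Against class 2, Casq2 (-0.33), Slc8a1 (-0.047), Jph2 (-0.39) and Asph (-0.34) turned.

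Per thin filament UMI, Ryr2 (-0.64), Atp2a2 (-0.68), Pln (-0.67), Casq2 (-0.15), Slc8a1 (-0.047), Cacna1c (-0.33), Trdn (-0.66), Jph2 (-0.20) and Asph (-0.26) turned from their direction per Myh6+Myl2 UMI, and per thick filament and Z-disc UMI Ryr2 (-0.62), Atp2a2 (-0.65), Pln (-0.64), Casq2 (-0.12), Slc8a1 (-0.0077), Cacna1c (-0.31), Trdn (-0.63), Jph2 (-0.15) and Asph (-0.22). In cardiomyocyte-rich spots, Atp2a2 was at -0.015 without day 1 and Ryr2 at -0.049 without day 4. The mean log2 change of Pln UMIs per Atp2a2 UMI turned to -0.0030 without Nppb and -0.0020 with 3 classes, and ranged from -0.055 to 0.128 leaving out 1 section.

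The members' summed level in cardiomyocyte-rich spots was 13482, 12659.9, 13087 and 13705 CPM on days 1, 4, 7 and 14. It also moved to 10308 and 13262 on days 4 and 14 with no hemoglobin limit, 10732 on day 7 at 0.5%, 11590 on day 7 without skeletal muscle and atrial spots, and 13483 on day 14 without spots under 1000 UMIs.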
